A study of Mus musculus with 12 samples.

Results

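The cells described here are the Foxp3 regulatory T cells (Tregs) of MC38 tumors, taken as every cell that carries the number 8 in the authors' own clustering. They numbered 2206 of 93126 cells in all and 2206 of 12021 cells in the 9 clusters of T and NK cells. Transcripts were counted in single cells with the 10x Genomics 5′ chemistry as unique molecular identifiers (UMIs), each of which marks 1 captured RNA molecule. MC38, a mouse colon carcinoma line of C57BL/6J (B6) origin, was grown under the skin of female mice aged 8 to 12 weeks. Hosts were B6 animals or the F1 offspring of B6 fathers and mothers of the Collaborative Cross (CC), a set of recombinant inbred lines made by intercrossing several founders: CC001/UncJ, CC002/UncJ, CC007/UncJ, CC036/UncJ, CC075/UncJ, CC079/TauUncJ or CC080/TauUncJ. At a tumor volume of 75 to 110 mm3 each animal was given 200 µg of isotype control antibody (clone 2A3) or of PD-1 blocking antibody (aPD1, clone 29F.1A12) once, and its tumor was collected after 48 h.

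Every F1 host carried a B6 haplotype beside its CC haplotype, so these strains differ from B6 in at most a single copy of each locus. The study classed CC001, CC002 and CC075 as responders and CC036, CC079 and CC080 as non-responders from tumor growth in other animals, while B6 and CC007 were placed in no class. Tumors were frozen, then sorted to 90% CD45-positive and 10% CD45-negative cells, and 4 hashtagged specimens were pooled in each of 12 libraries, which gave 48 tumors. All shares below are therefore shares of sorted cells. Isotype and aPD1 tumors carried different hashtags throughout, and hashtag and treatment cannot be told apart. Tumors, not cells, were the replicates.

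Tregs are the CD4 T cells that restrain immune responses, and the transcription factor Foxp3 fixes and maintains their identity. They consume interleukin 2 through the high-affinity receptor chain Il2ra, take costimulatory ligands off antigen-presenting cells through Ctla4, and release mediators such as interleukin 10 and transforming growth factor beta. In mouse tumors they often carry an activated, effector form with receptors of the TNF receptor family (Tnfrsf4, Tnfrsf9, Tnfrsf18) and the lectin-like receptor Klrg1, and the balance of Tregs to cytotoxic CD8 T cells is a common readout of antitumor immunity.

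Tregs were found in 47 of 48 tumors, with a median of 34 and at most 207 per tumor, and 34 tumors held at least 20. The cells were shallow: their median was 1375.5 UMIs and 814 genes per cell against 3333.5 UMIs over all cells, and together they held 5906862 UMIs. Of the 2206 cells, 268 carried a barcode that another library also used, as did 10176 of all cells.

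A set of cells within the cluster went against its label. Of the 2206 cells, 186 (8.43%) carried a UMI of Cd8a or Cd8b1, the chains of the CD8 coreceptor, and these had a median of 9605.5 UMIs against 1309.5 in the rest of the cluster. They therefore held 29.0% of all UMIs of the cluster. Foxp3 stood at 27.4 CPM (counts scaled to a total of 1000000 UMIs summed over the cells) in them and at 336.5 CPM in the rest, and Ikzf2, which encodes the transcription factor Helios, at 311.1 and 2005 CPM. Of 165 cells with over 8000 UMIs, 97 carried a CD8 UMI, and 26 cells had both a CD8 and a Foxp3 UMI. Pooled over tumors, they ran from 2.21% of CC007 and 4.22% of CC079 Tregs to 28.6% of CC075 Tregs. In CC075 they held 53.2% of the UMIs. Among tumors with at least 20 Tregs, the 2 of CC075 stood at 4.76 and 33.3%, and CC036 tumors ran from 4.76 to 34.4%. Of the UMIs of these CC075 tumors they held 62.7% in pool 9 and 10.4% in pool 11. Counted over all cells of a class, 10.48% of responder and 6.90% of non-responder Tregs were such cells. These held 38.2 and 18.9% of the UMIs. Tumor medians were 8.33% (1.59 to 33.3%) for responder and 6.67% (0 to 34.4%) for non-responder strains, and the ranges overlapped. No test was run on these shares. Whether these cells were pairs of cells in 1 droplet or another cell type was not tested. Below, a call that is lost or a sign that turns without them is given with that value.

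The cluster carried the markers of its label. All 5 given markers (Foxp3, Ikzf2, Tnfrsf4, Klrg1 and Itgb8) were at their highest in cluster 8 among the 9 T and NK clusters. Foxp3 reached 246.8 CPM (336.5 without the cells with a CD8 UMI) against 39.4 CPM in the next cluster, number 1. Klrg1 reached 221.1 CPM against 52.5 CPM, and Itgb8, an integrin chain that releases active transforming growth factor beta, 158.1 CPM against 45.8 CPM. Cluster 8 held 1458 of the 2094 Foxp3 UMIs of the series (69.6%). These levels describe the cells that the clustering put together and carry no test. Beside Foxp3, which stood 6.26-fold over the next T or NK cluster, the genes of widest margin were Frmd5 (136.8 against 20.6 CPM, 6.63-fold), Nckap5 (137.6 against 26.5 CPM) and Rln3 (84.5 against 18.1 CPM), ahead of Klrg1.

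**Figure D1:**
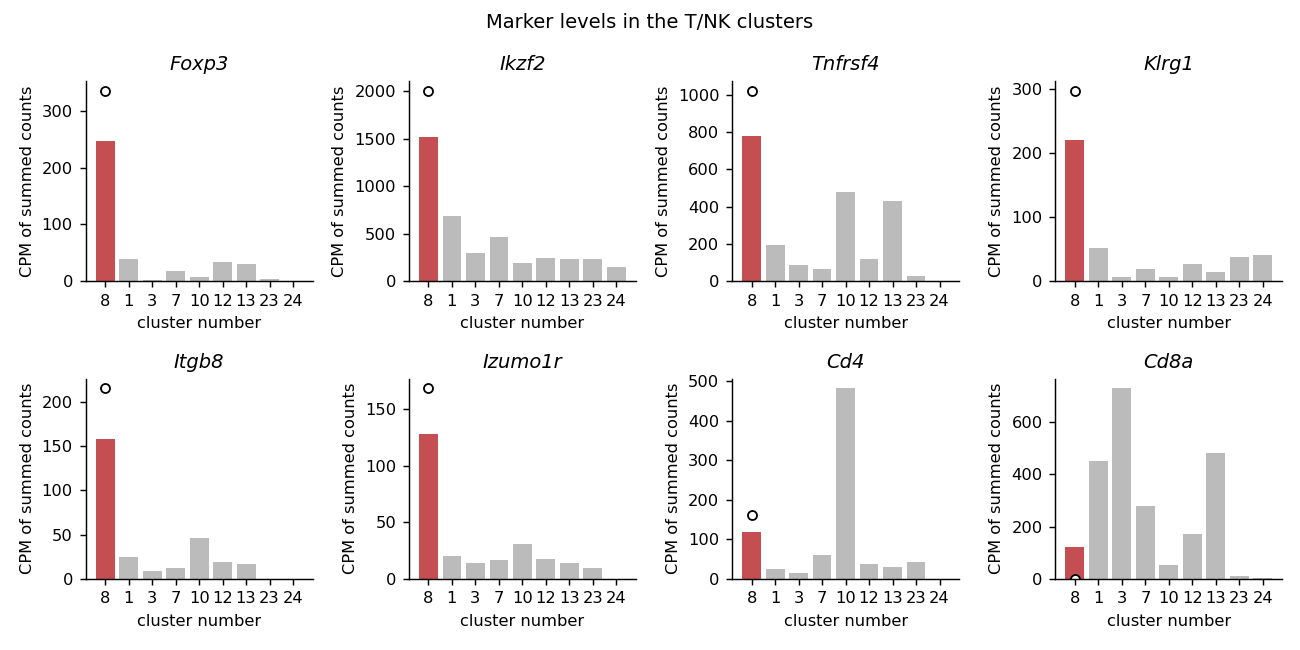
Level of 8 genes in the 9 T and NK clusters, as CPM of the counts summed over each cluster; the red bar is cluster 8 and the open circle is cluster 8 without the cells that carry a Cd8a or Cd8b1 UMI. Foxp3 stood at 246.8 CPM in cluster 8 and at no more than 39.4 CPM elsewhere, while Cd4 was highest in cluster 10, at 481.9 CPM.

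Foxp3 was seen in a minority of single cells at this depth. A Foxp3 UMI was found in 850 Tregs (38.5%). After each cell was thinned to 1000 UMIs, 25.9% of 1557 Tregs carried one (95% Clopper-Pearson interval 23.7 to 28.1%). The same thinned share was 1.38% in the CD4 helper cluster 10, 1.98% in cluster 7 and 0.154% in the cytotoxic cluster 3. In macrophage cluster 2, which should lack the gene, it was 0.0596% (0.274% before thinning, with a median of 3881 UMIs per cell). Ikzf2 was found in 74.7% of thinned Tregs, Klrg1 in 22.9% and Izumo1r, the Treg-associated folate receptor 4, in 17.1%. Intervals cover counting error only.

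Among genes that define Tregs, 9 of 14 that reached 10 CPM were highest in cluster 8 of all T and NK clusters, beside 755 of 7897 genes in all (9.56%). Il2ra stood at 613.2 CPM against 214.9 CPM in cluster 10, and Ctla4 at 986.3 against 586.1 CPM. Tnfrsf18, which encodes the costimulatory receptor GITR, stood at 643.3 against 492.9 CPM. The members below cluster 10 were Cd4, at 118.8 against 481.9 CPM, Nrp1, a coreceptor of thymic Tregs, at 30.6 against 145.9 CPM, and the T cell receptor genes Cd3e, Cd3d and Trac. The median of this list was 0.70 above cluster 10 on the log2 scale (1.04 without the cells with a CD8 UMI), beside 0.05 for all 8420 genes of at least 10 CPM in either cluster. Of these 8420 genes 4582 (54.4%) lay above cluster 10, as did 9 of the 14 compared members.

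Genes of effector Tregs were high and those of resting T cells low. Of 17 genes listed for effector Tregs of tumors, 9 were highest in cluster 8, again beside 9.56% of all genes. They included Maf at 539.0 CPM, a transcription factor of effector T cells, against 263.7 CPM in the next cluster. Tigit, an inhibitory receptor, stood at 307.6 CPM against 180.1 CPM. None of 10 genes of resting or circulating T cells was highest there: Tcf7, the transcription factor that keeps T cells stem-like, stood at 7.79 CPM against 153.2 CPM in cluster 7, and Il7r at 261.1 CPM against 1489 CPM in cluster 23. Among the costimulatory TNF receptors 4 of 5 that reached 10 CPM were highest in cluster 8, and the inhibitory receptor Pdcd1, the target of aPD1, stood at 92.1 CPM against 238.0 CPM in cluster 10.

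Suppressive mediators were uneven. Of 13 that reached 10 CPM, 5 were highest in cluster 8, and 9 of 13 compared lay above cluster 10 (beside 9.56% and 54.4% of all genes). Il10 stood at 103.6 CPM against 26.9 CPM in cluster 10, and Areg, the tissue-repair ligand amphiregulin, at 321.7 against 96.9 CPM. Gzmb, the protease granzyme B, stood at 826.8 against 24.8 CPM and was found in 39.7% of thinned Tregs and 1.72% of thinned cluster 10 cells. The reverse order held for Penk, the enkephalin precursor, at 253.8 against 829.5 CPM, for Tgfb1 at 248.2 against 498.2 CPM, and for Ebi3, a chain of interleukin 35, at 51.8 against 80.1 CPM.

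Interferon-induced genes lay above the helper cluster in 21 of 21 compared, beside 54.4% of all genes, with a median of 0.84 on the log2 scale (1.08 without the cells with a CD8 UMI). Ly6a, an interferon-inducible surface protein also known as Sca-1, stood at 2332 CPM against 1166 CPM. Of 21 interferon-induced genes that reached 10 CPM, 7 were highest in cluster 8 of all T and NK clusters, beside 9.56% of all genes. All 15 cell cycle genes also lay above cluster 10, beside 54.4% of all genes, with a median of 1.35, which was 0.87 without the cells with a CD8 UMI. None of these 15 was highest in cluster 8. The proliferation marker Mki67 stood at 202.0 CPM (160.5 without them), well under the 612.5 CPM of cluster 1. Genes induced by T cell receptor signalling were lower than in the helper cluster, with 2 of 14 above it and a median of −0.82. Nr4a1, an early response gene of the receptor, stood at 240.9 CPM against 494.0 CPM. Genes of the interleukin 2 receptor and its STAT5 signal were split, with 6 of 12 above the helper cluster, close to the 54.4% of all genes, and a median of −0.14, and 10 of 13 glycolysis genes lay above it with a median of 0.32. Of the type 17 genes none reached 20 CPM, and Ifng, the gene of interferon gamma, stood at 166.4 CPM, or 29.6 CPM without the cells with a CD8 UMI.

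Markers of other cell types were low. The summed level of 10 macrophage markers was 523.5 CPM, against 29979 CPM in the macrophage cluster where it was highest, and 7 of the 10 reached 10 CPM. The sum of 4 CD8 T cell markers was 274.4 CPM and fell to 19.8 CPM without the cells with a CD8 UMI. Dendritic cell, granulocyte, fibroblast and red blood cell markers summed to 2.71, 1.86, 4.57 and 2.20 CPM. Markers of NK cells and of gamma delta T cells summed to 74.5 and 7.11 CPM. B cell markers summed to 130.5 CPM and MC38 or epithelial markers to 16.6 CPM.

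The first comparison asked whether Tregs were more frequent in tumors of 1 class of strain, and whether aPD1 changed their frequency. As a share of all cells they were not distinguishable between classes or treatments. In isotype tumors the share was 1.87% ± 1.34 (SD, n = 10) among responder tumors and 2.56% ± 1.41 (n = 9) among non-responder tumors (two-sided exact permutation test of ranks, p = 0.243, adjusted p = 0.508 over the 23 tests of shares and ratios). In aPD1 tumors it was 2.37% ± 1.37 (n = 10) and 2.24% ± 1.51 (n = 9; exact permutation p = 0.720, adjusted p = 0.904). Within a pool, the aPD1 tumor had the higher share in 6 of 10 responder pairs and in 5 of 9 non-responder pairs. Over all 8 strains the mean was 2.03% ± 1.41 under aPD1 and 2.22% ± 1.63 under isotype (n = 24 each; permutation p = 0.878). The effect of aPD1 differed between classes by 0.82 percentage points, with an exact permutation p = 0.159 and an adjusted p = 0.427.

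The spread among tumors of a strain was wide. The highest share was 6.72% in the CC007 isotype tumor of pool 6, which gave 207 Tregs, while the other CC007 isotype tumor stood at 0.566%. Strain means of isotype tumors ran from 0.726% in CC075 (n = 3) to 3.64% in CC007 (n = 2). Those of aPD1 tumors ran from 0.463% in CC007 (n = 2) to 3.64% in CC002 (n = 3). The CC007 aPD1 tumor of pool 6 had 0 Tregs, but only 53 cells in all. The Kruskal-Wallis statistic over 8 strains was 7.58 in isotype tumors (permutation p = 0.397) and 10.1 in aPD1 tumors (permutation p = 0.162), and neither passed the threshold of 0.05 after adjustment (adjusted p = 0.570 and 0.427).

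**Figure D2:**
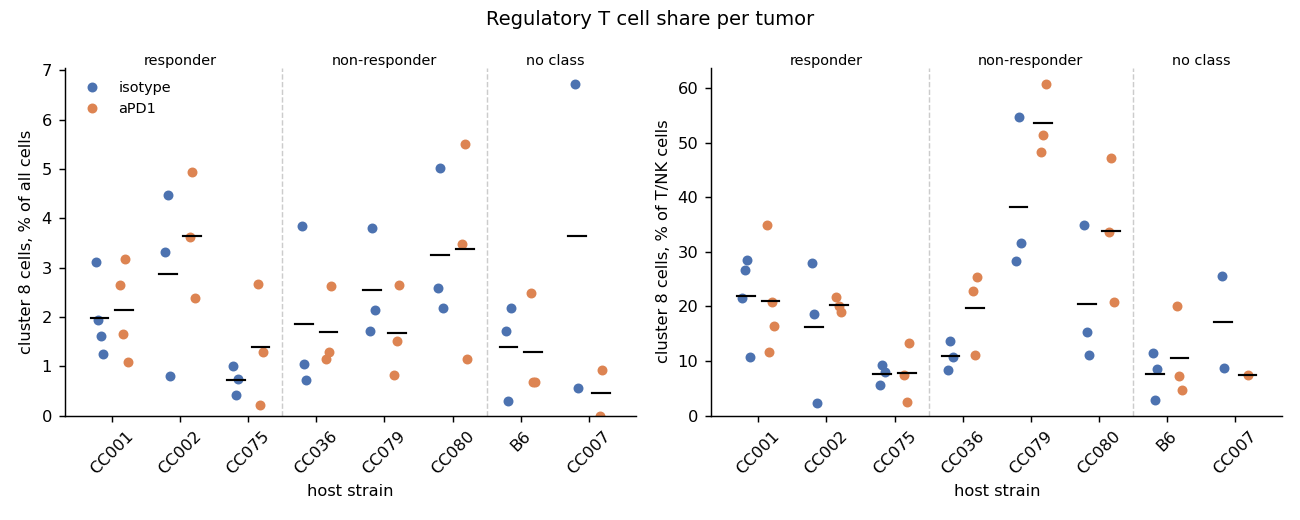
Tregs as a percentage of all cells (left) and of T and NK cells (right) in each tumor, by host strain; points are tumors, blue for isotype and orange for aPD1, and bars are strain means. The aPD1 tumors of CC079 stood between 48.3 and 60.8% of T and NK cells, 1 isotype tumor of CC079 stood at 54.7%, and the CC075 tumors stood between 2.44 and 13.3%.

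Among T and NK cells, Tregs were a larger part of the aPD1 tumors of non-responder strains, though not past the adjusted threshold. In aPD1 tumors of responder strains the lowest share was 2.44%, the median 17.7% and the highest 35.0%. In those of non-responder strains these values were 11.1, 33.6 and 60.8%. The groups overlapped, with 2 of 10 responder tumors below all 9 non-responder tumors. The means were 16.8% ± 8.93 (n = 10) and 35.7% ± 16.9 (n = 9), a difference of 18.9 percentage points (exact permutation p = 0.0082, adjusted p = 0.0814). In isotype tumors the means were 15.9% ± 9.94 and 23.2% ± 15.4 (exact permutation p = 0.211, adjusted p = 0.485). Leaving out CC036 or pool 9 put the aPD1 difference past the threshold (exact permutation, adjusted p = 0.0153 and 0.0199), and without CC079 it was −10.03 percentage points. With cells counted by a Foxp3 UMI in place of the cluster it was −7.90 percentage points.

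The strains behind this difference were unlike each other. CC079 had the highest mean share under both treatments, 38.2% in isotype and 53.5% in aPD1 tumors. CC080 stood at 20.4 and 33.9% and CC036 at 10.9 and 19.8%, beside 21.8 and 21.0% in CC001 and 16.3 and 20.3% in CC002. CC075, B6 and CC007 were low in aPD1 tumors, at 7.74, 10.6 and 7.46%. The aPD1 effect on this share was 12.5 percentage points in non-responder strains (6 of 9 pairs up, exact permutation p = 0.161) and 0.88 in responder strains (6 of 10 pairs up, exact permutation p = 0.853). The difference between these effects was −11.7 percentage points, with an exact permutation p = 0.044 that did not hold after adjustment (adjusted p = 0.253). The denominator includes the cytotoxic clusters 3 and 13, so this share also moves with the number of their cells. In the same non-responder tumors the Treg share of all cells changed by −0.32 percentage points under aPD1. Its mean went from 2.55 to 1.67% in CC079, from 1.87 to 1.69% in CC036 and from 3.26 to 3.38% in CC080. The aPD1 tumors of CC079 held 29, 68 and 97 T and NK cells.

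Relative to the CD4 helper cells of cluster 10, Tregs were on average the majority in both classes. They made up 76.7% ± 17.6 (n = 8) of the cells of clusters 8 and 10 in responder isotype tumors and 72.3% ± 23.3 (n = 9) in non-responder isotype tumors. Under aPD1 the values were 78.4% ± 16.5 (n = 9) and 86.3% ± 15.0002 (n = 8). No test of this share passed the threshold, the smallest being an exact permutation p = 0.122 (adjusted p = 0.427) for the difference of the aPD1 effect between classes. The aPD1 tumor was higher in 8 of 8 non-responder pairs, with an exact permutation p of 0.167 over the groups (adjusted p = 0.427) and of 0.00781 over the pairs (adjusted p = 0.0664). The isotype difference between classes changed sign, to −3.48, with the pools as blocks.

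Of the 23 tests 1 passed the threshold, the class difference under aPD1 in the ratio of Tregs to cytotoxic T lymphocytes (CTLs). CTLs were clusters 3 and 13, and the ratio was the log2 of Treg over CTL numbers with 0.5 cells added to each. In aPD1 tumors of responder strains it had a lowest value of −4.28, a median of −1.07 and a highest of 0.17. In those of non-responder strains these were −0.12, 1.24 and 3.72. Thus 8 of 10 responder tumors lay below all 8 non-responder tumors. The means were −1.25 ± 1.33 (n = 10) and 1.51 ± 1.37 (n = 8), a difference of −2.75 (exact permutation p = 0.000183, adjusted p = 0.0042), and −2.99 without the cells with a CD8 UMI (exact permutation, adjusted p = 0.0042). In isotype tumors the means were −1.76 ± 1.40 (n = 9) and 0.69 ± 1.85 (n = 9), a difference of −2.46 (exact permutation p = 0.0106, adjusted p = 0.0814), which passed the threshold without CC036, pool 8 or pool 10.

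The ratio holds the CTL number as well as the Treg number, and a class difference in these CTL clusters was already known from the same tumors, so it is not independent evidence on Tregs. Its aPD1 call was lost with pools as blocks (−3.32, exact permutation, adjusted p = 0.0664), over strain means (−3.06, exact permutation p = 0.1, the smallest that 3 strains against 3 allow), and without CC080 (−2.85, exact permutation, adjusted p = 0.0613). It was also lost within either set of pools alone, at −3.19 in pools 1 to 6 (exact permutation, adjusted p = 0.122) and −2.32 in pools 7 to 12 (adjusted p = 0.329). With cells counted by a Foxp3 UMI the difference was −2.34 (exact permutation, adjusted p = 0.253). The direction held in each of these.

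By strain, the log2 ratio under isotype and aPD1 averaged 2.51 and 3.53 in CC079, 0.58 and 1.34 in CC080, and −1.01 and 0.32 in CC036. It averaged −1.13 and −0.49 in CC001, −1.86 and −0.90 in CC002, and −2.89 and −2.60 in CC075. In these 6 strains the mean under aPD1 was the higher of the pair. It was the lower in the strains of no class, at −1.40 and −1.84 in B6 and at −0.79 and −1.10 in CC007, the last from 1 tumor. Neither class passed a test of that change, which was 0.52 in responder strains (7 of 9 pairs up, exact permutation p = 0.356) and 0.81 in non-responder strains (6 of 8 pairs up, exact permutation p = 0.370). Over the pairs alone, which leave out tumors with no partner, the change averaged 0.86 (9 pairs) and 0.93 (8 pairs), and the classes differed in it by −0.08 (exact permutation p = 0.904).

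**Figure D3:**
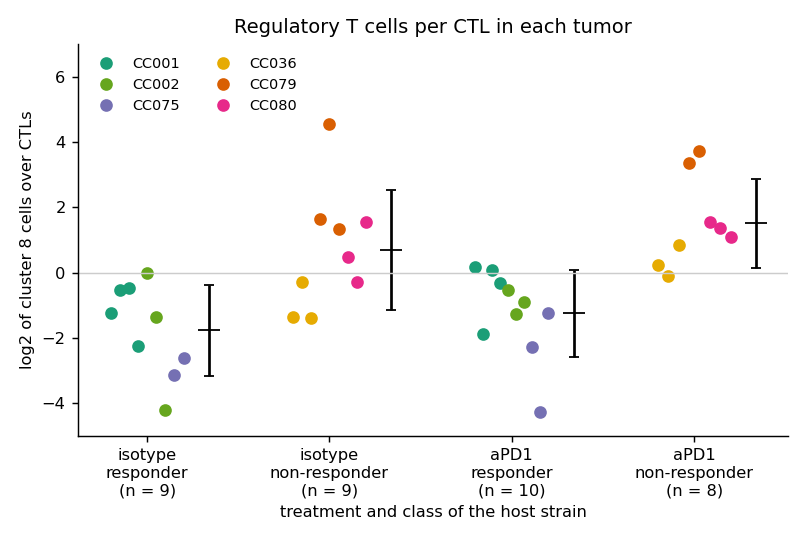
Log2 ratio of Tregs to CTLs in each tumor, by treatment and class of the host strain; points are tumors coloured by strain, and the bars give mean ± SD. The responder aPD1 tumors sit between −4.28 and 0.17 and the non-responder aPD1 tumors between −0.12 and 3.72.

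Gene levels were compared in counts summed over the Tregs of a tumor, in the 34 tumors with at least 20 Tregs, which held 47771 to 364788 UMIs each (median 145705). Between classes, 5 of 2348 genes (0.213%) passed an adjusted p of 0.05 in edgeR's quasi-likelihood test (15 tumors against 15), and 204 (8.69%) had an unadjusted p under 0.05. Of the 5, 1 was higher (0.0426%) and 4 were lower (0.17%) in responder strains. The count was 2 or 3 without CC001 or any of pools 2, 3, 4, 9, 10 and 12, and 8 without CC036. Without the cells with a CD8 UMI 4 genes passed, namely Rps18, Gm10260, Birc2 and Ifitm2. Class is a property of the strain, so the tumors of a class stand for 3 strains. With counts summed per strain (3 against 3) Gm10260 was the 1 gene to pass, and the calls of Rps18, H2-Q4, Birc2 and Izumo1r were lost. Izumo1r (chromosome 9, 14885814 to 14903949, GRCm38), the folate receptor 4 that marks Tregs, was the 1 of 108 tested pathway genes (0.926%) to pass. In responder tumors it had a lowest value of 3.14 CPM, a median of 64.0 and a highest of 151.6. In non-responder tumors these were 34.9, 195.1 and 443.3 CPM. The groups overlapped, with means of 74.3 ± 47.2 and 186.0 ± 111 CPM and a log2 difference of −1.36 (SE 0.31, edgeR adjusted p = 0.0491). The call sat at the threshold: it was lost without the cells with a CD8 UMI (means of 98.6 and 199.6 CPM, edgeR adjusted p = 0.0855) and in 12 of 16 fits that left out a strain or pool (all but those without CC002 or CC036 and those without pools 8 or 11), and it was firmer with pools as blocks (edgeR adjusted p = 0.00116).

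Birc2 (chromosome 9, 7818227 to 7837064), a ubiquitin ligase of TNF receptor signalling, was also lower in responder strains, at 66.2 ± 25.7 against 122.6 ± 34.7 CPM (log2 difference −0.84, edgeR adjusted p = 0.0235). Without the cells with a CD8 UMI the edgeR adjusted p was 0.0297, and the call was lost in 9 of 16 fits that left out a strain or pool, namely without CC001, CC002, CC079, CC080 or pools 2, 3, 9, 10 and 12. H2-Q4 (chromosome 17, 35379617 to 35385290), a class Ib MHC gene, stood at 179.7 ± 64.7 against 358.2 ± 140 CPM (log2 difference −0.98, edgeR adjusted p = 0.00692, or 0.0855 without the cells with a CD8 UMI), and was lost without CC001, CC079, CC080 or pools 2, 3, 4 and 12. Class I MHC genes resemble each other closely, so counts of a single one are uncertain.

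The other 2 genes were a ribosomal protein gene and its near copy. Rps18 (chromosome 17, 33951999 to 33956001) stood at 2723 ± 437 CPM in responder and 1375 ± 324 CPM in non-responder tumors (log2 difference 1.00, SE 0.12, edgeR adjusted p = 1.25e-06), and the groups did not overlap, at 2020 to 3559 and 866.1 to 1813 CPM. Gm10260 (chromosome 13, 97760072 to 97760632), an Rps18-like gene, stood at 14.1 ± 22.4 and 1012 ± 255 CPM (log2 difference −6.42, edgeR adjusted p = 8.54e-19). By strain, Gm10260 lay between 5.32 and 16.0 CPM in B6, CC001, CC002 and CC075 and between 891.2 and 1068 CPM in CC007, CC036, CC079 and CC080. Reads of near copies can be counted under either, so neither level stands alone.

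The given markers did not separate the classes. Foxp3 averaged 266.7 ± 100 CPM in responder and 279.7 ± 151 CPM in non-responder tumors (log2 difference −0.06, edgeR adjusted p = 0.968). Without the cells with a CD8 UMI the Foxp3 means were 377.4 and 308.4 CPM, and the sign of the difference turned to 0.26 (edgeR adjusted p = 0.941). The log2 difference of Klrg1 was −0.45 (edgeR unadjusted p = 0.048, adjusted p = 0.566), that of Ikzf2 −0.10, of Itgb8 −0.30 and of Tnfrsf4 −0.06. Of the CD8 T cell markers 2 were tested, with a median log2 difference of 1.16, and neither passed (edgeR adjusted p = 0.435 for Cd8a and 0.380 for Cd8b1). Over the 108 pathway genes the median difference was −0.10, beside 0.0003 over all genes tested, and 9 had an unadjusted p under 0.05, beside 8.69% of all genes.

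Treatment left no gene past the threshold within 48 h. Over all strains, 0 of 2398 genes (0%) passed in edgeR with strain as a term, 92 (3.84%) had an unadjusted p under 0.05, and DESeq2 also called 0. In responder strains 0 of 2484 genes passed in edgeR (6 isotype, 9 aPD1 tumors), 167 (6.72%) had an unadjusted p under 0.05, and DESeq2 called 1, Cenpa. In non-responder strains 0 of 2420 passed in edgeR (7 isotype, 8 aPD1 tumors), 62 (2.56%) had an unadjusted p under 0.05, and DESeq2 called 0. With pools as blocks edgeR called 1 in non-responder strains, the macrophage gene Spp1. For the difference between these effects, fitted without strain as a term, 0 of 3233 passed in edgeR, with 271 (8.38%) at an unadjusted p under 0.05. CC075 had no isotype tumor in these tests. Without pool 5, 2 genes passed in responder strains (Cenpa and Frmd5), and without CC080 1 gene passed for the difference (Nr3c1, the glucocorticoid receptor). The smallest edgeR adjusted p of the 4 comparisons was 0.0890, in responder strains. Over all strains the genes of smallest p were Rhoh (log2 difference −0.53), Cks2 (0.54), a cell cycle kinase subunit, and Edem1 (0.54), each at an edgeR adjusted p of 0.9996. In non-responder strains they were Atrnl1 (1.36) and Rbm27 (1.04), at an edgeR adjusted p of 0.999.

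That gene was Cenpa, which encodes the centromeric histone, at 125.0 ± 30.5 CPM (n = 6) in isotype and 266.6 ± 70.8 CPM (n = 9) in aPD1 tumors of responder strains (log2 difference 1.11, SE 0.22). The isotype tumors were 4 of CC001 and 2 of CC002, and the aPD1 tumors 4 of CC001, 3 of CC002 and 2 of CC075. These means thus cover unlike strains. The log2 difference, with strain as a term, rests on CC001 and CC002. In non-responder strains Cenpa stood at 167.6 ± 58.7 and 176.2 ± 84.0 CPM. All 11 tested cell cycle genes had a difference above 0 in responder strains, with a median of 0.48, beside 47.0% above 0 and a median of −0.02 over all genes. Of the 11, 5 had an unadjusted p under 0.05 in edgeR, beside 6.72% of all genes. In non-responder strains 3 of 9 were above 0, with a median of −0.10. The 2 tested CD8 T cell markers had a median difference of 0.76 in the same responder comparison, and without the cells with a CD8 UMI the Cenpa means were 110.1 and 208.7 CPM.

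Other genes of small p in responder strains were values below the threshold. Their means, too, included CC075 under aPD1 alone. Tox, a transcription factor induced by sustained receptor signalling, averaged 508.7 ± 255 CPM in isotype and 252.1 ± 69.2 CPM in aPD1 tumors (log2 difference −1.03, edgeR adjusted p = 0.319). Tsc22d3, a glucocorticoid-induced gene, averaged 216.0 ± 119 and 87.7 ± 43.4 CPM (log2 difference −1.18, edgeR adjusted p = 0.719). Ly6c2, a surface protein of activated CD8 T cells, averaged 30.6 ± 26.3 and 161.9 ± 111 CPM, and 25.6 and 50.1 CPM without the cells with a CD8 UMI. The Treg identity list had 0 of 11 tested members above 0 in responder strains (median −0.24), beside 47.0% of all genes, and 11 of 11 above 0 in non-responder strains (median 0.24), beside 51.4%. Other lists differed in the same comparisons. In responder strains the 2 tested CD8 T cell markers had the median of 0.76 given above, and dissociation stress genes had 1 of 10 above 0 (median −0.39). In non-responder strains the 2 tested macrophage markers had a median of −0.84. Their part in these values was not tested. None of those 11 members passed the threshold in either class, and for Foxp3 the difference between the effects was −0.51 (SE 0.48, edgeR adjusted p = 0.791). The fit of that difference had no term for strain, and CC075 entered it with 2 aPD1 and 0 isotype tumors. Strain and treatment are therefore partly mixed in it.

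Across the 8 host strains 166 of 5256 genes (3.16%) passed in edgeR's test over all strain terms, with treatment in the fit, and 769 (14.6%) had an unadjusted p under 0.05. DESeq2 called 234. When cells with a CD8 UMI were left out 167 genes passed, of which 114 were shared, and with each cell thinned to at most 1000 UMIs 128 passed, of which 75 were shared. With pools as blocks 72 passed. The count fell to between 83 and 104 without CC001, CC079 or any of pools 1, 2, 3, 4, 5 and 9, and was 323 without pool 6, which held the CC007 tumor and 2 of the 3 B6 tumors. The numbers of tumors were uneven: 8 for CC001, 6 for CC080, 5 each for CC002 and CC079, 4 for CC036, 3 for B6, 2 for CC075 (both aPD1) and 1 for CC007. Of the 144 tested pathway genes 14 (9.72%) passed.

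Ly6a (chromosome 15, 74994877 to 74998031), the interferon-inducible surface protein, passed in each of the 19 fits that left out a strain or pool. In CC079 tumors its levels were 6496, 5118, 3649, 3557 and 3309 CPM. In CC080 tumors the lowest was 1383, the median 4091 and the highest 5809 CPM. CC001 tumors ran from 472.6 through a median of 1173 to 1908 CPM, and the 2 CC075 tumors stood at 646.5 and 1028 CPM. All 5 CC079 tumors thus lay above all tumors of CC001, CC002, CC075, CC036, B6 and CC007. The strain means were 4426 ± 1358 in CC079, 3699 ± 1764 in CC080, 2665 in CC007, 2538 ± 700 in CC002, 1485 ± 389 in B6, 1309 ± 1148 in CC036, 1175 ± 518 in CC001 and 837.2 ± 270 CPM in CC075. The edgeR adjusted p was 4.22e-05, and at most 0.00368 without any 1 strain or pool. It was lost in pools 7 to 12 alone (edgeR adjusted p = 0.794), where CC079 had no tumor. Neighbours in this order, such as CC079 and CC080 or CC036 and CC001, overlapped.

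Izumo1r also passed in the test over all strains, which includes its class difference, and strains within a class were not tested apart. The CC079 tumors held 443.3, 346.9, 236.9, 226.1 and 201.3 CPM, and the 2 CC075 tumors 3.14 and 22.5 CPM. The 3 B6 tumors held 287.8, 111.6 and 102.7 CPM, and the CC007 tumor 283.9 CPM. CC079 was therefore high and CC075 low, with the other F1 strains of a class between. Strain means were 290.9 ± 102 in CC079, 156.1 ± 81.6 in CC080, 99.6 ± 54.1 in CC036, 97.9 ± 48.7 in CC002 and 74.9 ± 40.04 CPM in CC001. The edgeR adjusted p was 0.000524, and 0.000284 without the cells with a CD8 UMI, where the CC075 mean was 16.8 CPM. It was 0.403 in pools 7 to 12 alone. The CC079 tumors came from pools 1, 2 and 5 and the 2 CC075 tumors from pools 9 and 11. Strain and pool therefore cannot be told apart between these strains. The 2 CC075 tumors had medians of 3606 and 6323 UMIs per Treg, against 1380 to 1701 in CC079. Leaving aside CC007, CC079 was the highest strain in 56 and CC075 the lowest in 46 of the 166 genes past the threshold among strains. CC080 and CC036 were each the highest in 25, and CC036 was the lowest in 34. No such count over all 5256 tested genes stands beside these, so they describe the called genes alone.

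**Figure D4:**
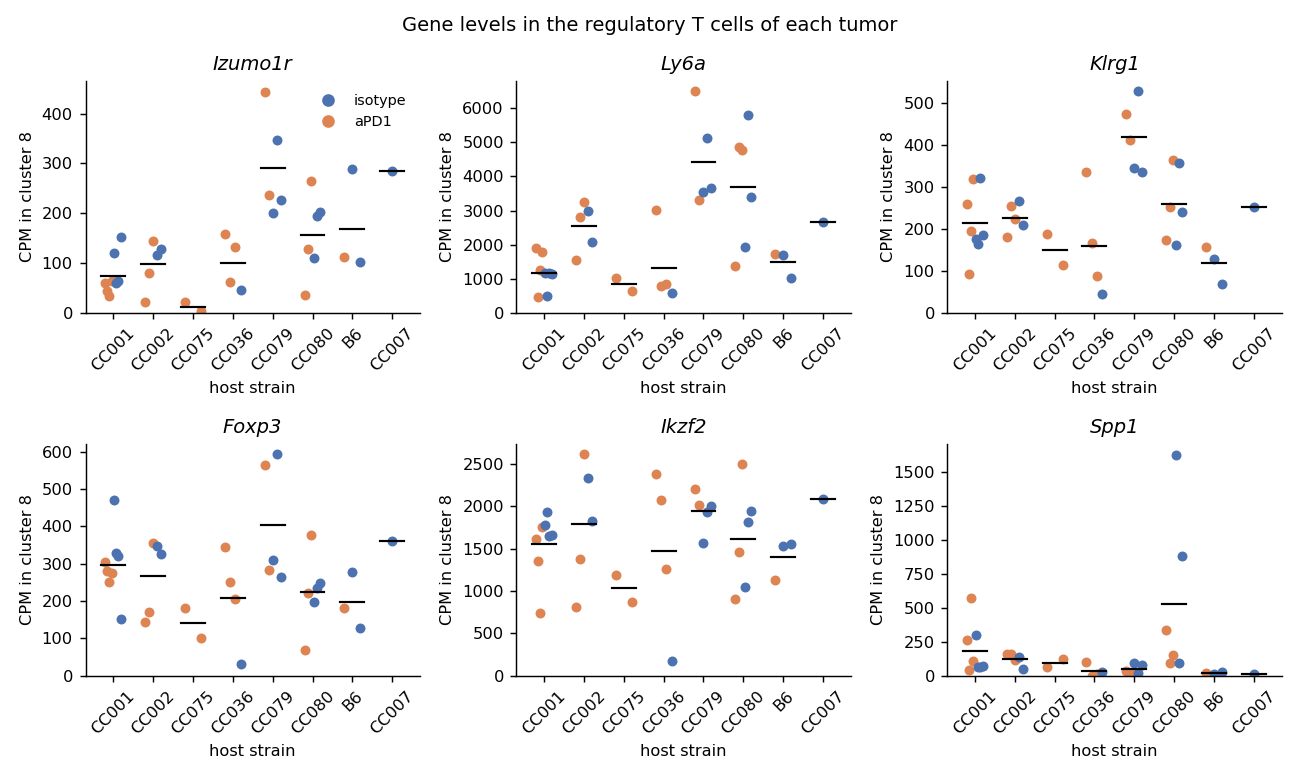
Level of 6 genes in the Tregs of each tumor with at least 20 Tregs, as CPM of that tumor's summed Treg counts, by host strain; points are tumors, blue for isotype and orange for aPD1, and bars are strain means. Ly6a and Izumo1r are high in CC079 and low in CC075, while the Foxp3 values of the strains overlap.

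The effector marker Klrg1 (chromosome 6, 122270596 to 122282882) was the 1 of the 5 given markers to pass. It ran from 335.3 to 527.9 CPM in CC079 (mean 418.8 ± 83.0) and from 68.5 to 157.0 CPM in B6 (mean 118.2 ± 45.2), with the other strain means between 150.3 and 258.1 CPM. The edgeR adjusted p was 0.0126. The call was lost with pools as blocks (edgeR adjusted p = 0.266) and without CC079 or any of pools 2, 5 and 8 (at most 0.404). Foxp3 did not pass (strain means of 140.2 in CC075 to 403.7 CPM in CC079, edgeR adjusted p = 0.304), nor did Ikzf2 (adjusted p = 0.825), Tnfrsf4 (0.391) or Itgb8 (0.736). With tumors of 10 or more Tregs taken in, Foxp3 (edgeR adjusted p = 0.0248) and Tnfrsf4 (0.00688) passed, and Tnfrsf4 also passed without pool 10 (0.0307).

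Suppressive mediators gave 4 of 13 tested genes past the edgeR threshold, beside 3.16% of all genes. Gzmb was highest in CC002 (1282 ± 328 CPM) and lowest in CC075 (220.8 ± 185 CPM; edgeR adjusted p = 0.0481). Areg was highest in CC036 (578.7 ± 186 CPM) and lowest in CC075 (42.6 ± 28.5 CPM; edgeR adjusted p = 0.0377, or 0.169 without the cells with a CD8 UMI). Penk was highest in CC080 (578.2 ± 378 CPM; edgeR adjusted p = 0.0214), and was lost without the cells with a CD8 UMI (edgeR adjusted p = 0.0523) and without CC080 or any of pools 3, 4, 8 and 9. Nt5e, the ectoenzyme CD73 that makes adenosine, ran from 10.0 CPM in CC075 to 81.6 CPM in CC007 (edgeR adjusted p = 0.0392). With pools as blocks Gzmb passed (edgeR adjusted p = 0.000635) and the other 3 did not, at adjusted p = 0.141 for Areg, 0.502 for Penk and 0.0741 for Nt5e. Gzmb was lost with the set of pools (1 to 6 or 7 to 12) as a term (edgeR adjusted p = 0.299), in pools 1 to 6 (0.233) and 7 to 12 (0.618) alone, in DESeq2 and with tumors of at least 10 or 40 Tregs. The sets were split by pool number, and no label names them as batches.

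Chemokine receptors gave 3 of 7 tested genes past the edgeR threshold, beside 3.16% of all genes. Ccr8, a receptor common on tumor Tregs, was highest in CC079 (123.4 ± 42.4 CPM) and CC001 (119.9 ± 52.8 CPM) and lowest in CC075 (22.9 ± 10.1 CPM; edgeR adjusted p = 0.0390, and 0.134 with pools as blocks). Ccr2 was highest in CC079 (352.5 ± 62.2 CPM) and lowest in CC001 (136.9 ± 59.2 CPM; edgeR adjusted p = 0.0430). Cxcr4 was highest in CC036 (194.5 ± 144 CPM) and lowest in CC001 (37.4 ± 26.6 CPM; edgeR adjusted p = 0.0456, 0.740 with pools as blocks, and 0.0732 without the cells with a CD8 UMI). The remaining pathway genes past the threshold were Bcl2, Il2rg, Il12rb2 and Capg, with edgeR adjusted p between 0.00854 and 0.0370. With pools as blocks Il2rg (edgeR adjusted p = 0.525) and Capg (0.650) no longer passed, and neither did Il2rg (0.0671) and Il12rb2 (0.171) without the cells with a CD8 UMI. With the set of pools as a term 4 of the 14 pathway genes passed, namely Ly6a, Izumo1r, Areg and Penk, and Ccr2 (edgeR adjusted p = 0.0918), Bcl2 (0.0539) and Il12rb2 (0.0798), which had passed with pools as blocks, did not. Of the 12 pathway genes past the threshold beside Ly6a and Izumo1r, all but Penk were lost without CC079, and 8 of the 19 fits that left out a strain or pool kept Areg, 6 kept Gzmb, 9 each Capg, Ccr8 and Nt5e, 10 each Ccr2, Cxcr4 and Il2rg, 13 Il12rb2, 15 Klrg1 and 17 Bcl2. None of 15 cell cycle, 12 T cell receptor activation, 5 TNF receptor or 8 checkpoint receptor genes passed, beside 3.16% of all genes. Those lists had 1, 2, 2 and 3 genes with an unadjusted p under 0.05 in edgeR, beside 14.6% of all genes.

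Among the genes of smallest p were near copies of other genes, MHC genes, genes high in a single strain, and genes high in several. Ifitm2 (chromosome 7, 140954837 to 140955987), an interferon-induced membrane protein, ran from 663.1 to 1349 CPM in the 6 CC080 tumors and from 56.5 to 460.9 CPM in all others (edgeR adjusted p = 1.22e-09, and 0.928 without CC080). Mid1, a microtubule-associated ubiquitin ligase, averaged 225.8 ± 123 CPM in CC001, 126.2 ± 69.4 CPM in CC036 and 19.7 to 56.8 CPM elsewhere. Bcl2a1a, an antiapoptotic gene with close copies, averaged 130.8 ± 34.8 CPM in CC002 and at most 24.5 CPM elsewhere. Hist1h2ac, a histone gene, averaged 368.1 ± 234 CPM in the 2 CC075 tumors and at most 20.6 CPM elsewhere. Among class I MHC genes 6 of 11 passed, beside 3.16% of all genes, and with pools as blocks H2-K1 (edgeR adjusted p = 0.136), H2-D1 (0.363) and H2-T23 (0.459) no longer did. H2-Q2 averaged 557.1 CPM in CC007, 201.0 ± 55.4 CPM in CC079 and at most 31.95 CPM elsewhere.

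Macrophage genes were among those that differed between strains. Spp1 (chromosome 5, 104435118 to 104441050), a macrophage gene, averaged 529.3 ± 614 CPM in CC080 Tregs, with a median of 242.2 and a highest tumor of 1626 CPM, and 17.7 ± 7.88 CPM in B6 Tregs (edgeR adjusted p = 0.000175). Apoe, another macrophage gene, averaged 62.2 ± 43.8 CPM in CC079 and 6.89 ± 0.867 CPM in CC075 (edgeR adjusted p = 0.0435). Both belong to the 10 macrophage markers, whose sum averaged 861.8 CPM in CC080 and 240.3 CPM in B6 Tregs. Without the 243 Tregs (11.0%) that had 3 or more UMIs of these markers, Apoe no longer passed (edgeR adjusted p = 0.440; 0.102 without the cells with a CD8 UMI) and Spp1 was too low to test.

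The V genes of the T cell receptor were compared between strains. A T cell receptor beta chain is built from 1 of a set of Trbv gene segments, and 716 of the 2206 Tregs (32.5%) carried a UMI of at least 1 of 26 listed Trbv genes, 48 of them of more than 1. Trbv1 was found in 122 of these cells (17.04%, 95% Clopper-Pearson interval 14.4 to 19.997%), Trbv13-2 in 114 (15.9%) and Trbv19 in 77 (10.8%). Cells are pooled over strains here and CC080 gave 40 of the 122 Trbv1 cells, so no order of Trbv1 and Trbv13-2 is read from these shares. In CTLs Trbv1 stood at 5.52% of 1774 cells and Trbv13-2 at 13.8%. Of the V genes tested among strains, 4 of 16 Trbv and 1 of 12 Trav genes passed in edgeR, beside 3.16% of all genes. Trbv1 (edgeR adjusted p = 0.627) and Trbv13-2 (0.363) were not among them. With pools as blocks Trbv19 passed (edgeR adjusted p = 0.00793) and the calls of Trbv3 (0.220), Trbv15 (0.627), Trbv26 (0.880) and Trav5-1 (0.943) were lost. Trbv3, Trbv15 and Trav5-1 were too low to test without the cells with a CD8 UMI. The Trbv genes described below are among the 5 most frequent in Tregs.

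Trbv19 (chromosome 6, 41178375 to 41179048) varied most clearly by strain. In Tregs it was found in 0 of 37 cells in CC036, which allows a share of up to 8.11% when 3 counts are taken as the limit of a count of 0 and up to 9.49% by the Clopper-Pearson interval. It was found in 1 of 128 cells in CC080 (0.781%, interval 0.0198 to 4.28%). It was found in 17 of 44 cells in CC075 (38.6%, interval 24.4 to 54.5%) and in 8.51 to 14.3% elsewhere, a range whose lower end the CC036 limit by that interval reaches. The CC075 cells came from more than 1 tumor, with 10 of 24 in the aPD1 tumor of pool 9 and 3 of 8 in that of pool 11. Without the cells with a CD8 UMI 8 of 26 remained (30.8%). In CTLs the shares were 0 of 163 in CC080, 2 of 94 in CC036 (2.13%) and 42 of 316 in CC075 (13.3%), and in cluster 7 they were 2 of 211 (0.948%), 3 of 81 (3.70%) and 10 of 88 (11.4%). The CC080 share was the lowest of the 8 strains in CTLs and cluster 7. In cluster 7 the CC036 share (interval 0.77 to 10.4%) was close to that of CC001 (5 of 110, 4.55%), and no test between strains was run on these shares. The edgeR adjusted p among strains was 4.22e-05 in Tregs, and 0.0549 with cells thinned to at most 1000 UMIs.

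Trbv1 (chromosome 6, 40891229 to 40891885) was found in 40 of 128 CC080 Tregs (31.2%, interval 23.4 to 40.04%) and in 62 of 211 cluster 7 cells of that strain (29.4%), but in 21 of 163 of its CTLs (12.9%). In CC001 it was found in 28 of 140 Tregs and in 8 of 335 CTLs (2.39%). In CC007 it was found in 7 of 47 Tregs (14.9%, interval 6.204 to 28.3%), with 41 of the 47 from 1 tumor, and in 23 of 106 CTLs (21.7%, interval 14.3 to 30.8%), and these intervals overlap. Trbv3 (chromosome 6, 41048290 to 41048828) was found in 0 of 47 CC007 Tregs, which allows up to 6.38% at 3 counts and up to 7.55% by the Clopper-Pearson interval, in 2 of 106 CC007 CTLs and in 1 of 125 cluster 7 cells. Other strains had Trbv3 in 2.42 to 13.5% of Tregs. In CC079 Tregs 25.0% of 124 cells carried Trbv13-2, and in B6 and CC007 Tregs 6.00 and 6.38%. These shares are over cells pooled from the tumors of a strain, so their intervals do not hold the spread between tumors.

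**Figure D5:**
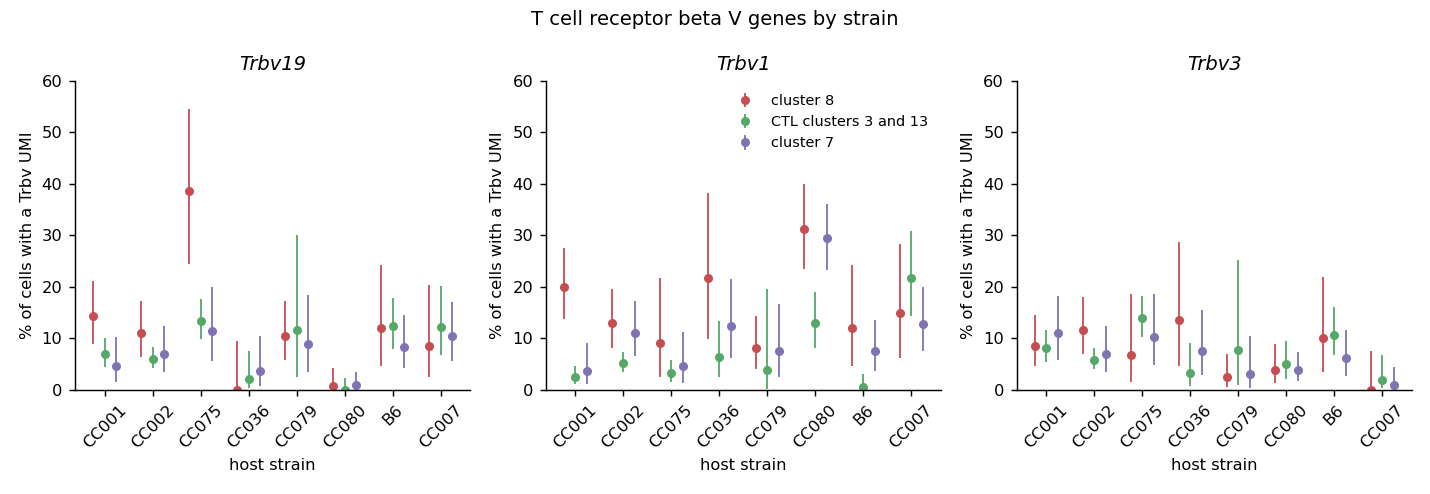
Share of cells with a Trbv UMI that carried Trbv19, Trbv1 or Trbv3, by host strain, in Tregs (red), CTL clusters 3 and 13 (green) and cluster 7 (purple); points are shares over pooled cells and lines are 95% Clopper-Pearson intervals. Trbv19 is at 0.781% in CC080 and 38.6% in CC075 Tregs, and Trbv1 reaches 31.2% in CC080 Tregs.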

How the data were processed

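The authors deposited raw UMI counts per gene and cell, aligned to GRCm38 with GENCODE vM23 by Cell Ranger, together with a metadata table that gives each cell's pool, strain, treatment, animal and cluster. Per the study's methods, cells over 15% mitochondrial or 45% ribosomal UMIs were removed, batches were integrated and T and NK cells were clustered again (resolution 0.3, 19 components; Seurat 5.0.1 per the submitters' processing notes). How doublets were handled is not given in the sources used here. All 150064855 deposited counts were whole numbers. The hashtag sequences were not used. Gene positions come from GENCODE vM21 on GRCm38. Response class comes from the study, not from the sample labels.

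Members and gene lists were chosen with earlier results of these data known. Shares were compared with two-sided exact permutation tests of rank sums (mean differences for the difference between classes), or 100000 permutations where enumeration was too long, adjusted by Benjamini-Hochberg over 23 tests. At least 20 cells of the denominator were required per tumor for shares of subsets. Counts were summed per tumor with at least 20 Tregs and tested with edgeR 4.0.16 (quasi-likelihood, TMM, filterByExpr), with DESeq2 1.42.0 as an alternative, in R 4.3.3; shares used Python 3.11.15, numpy 2.4.6, pandas 2.3.3 and scipy 1.17.1. The edgeR procedure was tested on simulated data. Genes named are the given markers, up to 10 past the threshold per direction (15 among strains, with those of the lists), and 3 where none passed. P-values measure the spread between tumors, and leave the shared pools aside.

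An isotype and an aPD1 tumor of a strain shared a pool per the labels, so pools were used as blocks in an alternative. Over 13 such pairs with both tumors tested, the correlation of their deviations over genes was 0.0865 to 0.425 (median 0.124), above 0.1 in 10 pairs, and 13 of 24 pairs of shares deviated the same way. A single animal identifier stood on 2 CC080 tumors, which were kept, and leaving both out was an alternative. Alternatives without cells with a CD8 UMI, with thinned cells, or with Tregs counted by a Foxp3 UMI were chosen after seeing the data.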

Additional observations from a re-analysis of the deposited data

Results flagged for a closer look

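Within a class and treatment, the level of 1 tumor stood apart from the others for Gm10260, the Rps18-like gene that was near 0 in responder strains. Among the 9 responder aPD1 tumors the CC002 tumor of pool 5 stood highest at 22.3 CPM, with the next at 7.50 CPM. Among the 6 responder isotype tumors the CC001 tumor of pool 1 stood highest at 87.5 CPM, with the next at 23.3 CPM. Both remained well under the lowest non-responder tumor, at 544.3 CPM. These were 2 of 56 groups examined, and about 1 in 20 is flagged by chance.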

How the results depend on the processing

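Shares rested on few tumors of uneven depth, and the gene tests on a median of 145705 UMIs per tumor. Of the summary values under every alternative, 612 kept their direction and side of the threshold (for counts of genes, stayed within 1.5 times), 38 changed sign, 37 counts moved further, 6 calls were lost and 6 were gained. The pool block changed the call of the aPD1 Treg to CTL ratio between classes (−3.32), turned the isotype share of clusters 8 and 10 between classes (−3.48), left 72 genes among strains and called 1 gene for treatment in non-responder strains, and changed no other call. The causes of these changes were not tested. The ratio under aPD1 was also lost over strain means (−3.06), in pools 1 to 6 (−3.19), in pools 7 to 12 (−2.32) and with Tregs counted by a Foxp3 UMI (−2.34), while the isotype ratio passed as a difference of means (−2.46). Other signs turned for differences that passed no test. In pools 7 to 12 these were the aPD1 share of all cells between classes (−0.0244), its change with treatment over all strains (0.0877) and the difference between classes in the change of the ratio (0.99). The latter also turned without the repeated animal (0.067) and with a Foxp3 UMI (0.38). In pools 1 to 6 the responder change in the share of T and NK cells (−2.83, and −0.636 without tumors of under 500 cells) and the isotype share of clusters 8 and 10 between classes (−0.0203) turned. Without the cells with a CD8 UMI the aPD1 share of all cells (−0.0404) and the responder change in the share of clusters 8 and 10 (−0.135) turned.

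The count of genes between classes was 17 with no filter on low counts, 9 in pools 1 to 6, 2 in pools 7 to 12, 2 without cells of macrophage UMIs, 3 without the repeated animal, 3 with thinned cells and 1 with counts summed per strain. For treatment it was 1 with DESeq2 and 4 without the filter in responder strains, and 3 without the filter in non-responder strains. Among strains it was 261 without the filter, 343 and 54 with tumors of at least 10 and 40 Tregs, 81 with the set of pools (1 to 6 or 7 to 12) as a term, 108 in pools 1 to 6 and 29 in pools 7 to 12. The class difference of Foxp3 turned to 0.19 in pools 7 to 12, 0.26 without the cells with a CD8 UMI and 0.017 with thinned cells, that of Ikzf2 to 0.0070 and 0.16 in the first pair, that of Tnfrsf4 to 0.10 without cells of macrophage UMIs and 0.22 without the cells with a CD8 UMI, and that of Itgb8 to 0.011 without the latter.

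Leaving out 1 strain or pool, the class difference in the share of all cells ran from −1.12 to −0.207 (isotype) and −0.424 to 0.688 (aPD1), and its change with treatment over all strains from −0.328 to 0.0821. For T and NK cells the class difference ran from −13.4 to 0.251 (isotype) and −26.9 to −10.03 (aPD1), and the responder change from −1.71 to 2.65. For clusters 8 and 10 the isotype class difference ran from −6.79 to 15.4 and the responder change from −1.57 to 6.25. For the ratio the class difference ran from −3.31 to −1.55 (isotype) and −3.46 to −2.07 (aPD1, lost without CC080), the responder change from −0.060 to 0.86 and the difference between classes from −0.58 to 0.23. Genes past the threshold ran from 2 to 8 between classes, 83 to 323 among strains, 0 to 2 for treatment in responder strains and 0 to 1 for the difference between classes, and were 0 for treatment over all strains and in non-responder strains in edgeR. Class differences ran from −0.28 to 0.27 for Foxp3, −0.19 to 0.000385 for Ikzf2 and −0.24 to 0.13 for Tnfrsf4.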
